A study of Drosophila melanogaster with 6 samples.

Results

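Neuropeptide genes and the enzymes that process their products were followed in larval tissues of Drosophila melanogaster. The set was defined as 40 named genes, 34 for peptide precursors and hormone subunits and 6 for processing enzymes, and its members were found by gene symbol. Of these, 36 were matched among the 14869 genes of the count table, 33 precursors and subunits and 3 enzymes. The hormone subunit Pburs and the enzymes Phm, Pal1 and Pal2 were not matched by symbol and are not analysed here.

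A neuropeptide is made as a long precursor that enters the secretory pathway and is cut, trimmed and often amidated inside dense core vesicles. In insects the prohormone convertase amon (the counterpart of mammalian PC2) cuts the precursor with the help of the chaperone 7B2, the carboxypeptidase svr (silver) removes basic residues, and the mature peptide acts mostly through G protein coupled receptors. In the larva these peptides come from neurons, from neurosecretory cells of the brain and ventral nerve cord, and from endocrine cells of the gut, the corpora cardiaca and the Inka cells on the trachea. The fat body, an organ of storage and metabolism, is known mainly as a target of such hormones and as a source of a few of them, CCHa2 among them.

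Polyadenylated RNA was sequenced from wandering male larvae of the third instar raised at 25 °C, in 3 groups of 2 biological replicates. The groups were central brain dissected without the ventral nerve cord, fat body of larvae fed 25 µM 4-hydroxytamoxifen (4-HT), and fat body of larvae without 4-HT, called control fat body here. The labels give no drug for the brain larvae. Every library pooled animals of 6 lines in equal number, 5 larvae of each line and 30 in all for brain and 3 of each line and 18 in all for fat body. All lines, those of the control libraries included, were y,w and carried at ZH51C an hsp70 promoter transgene for the Dam methylase with a 4-HT-dependent intein, either Dam alone or Dam fused to PC, H1, HP1, MRG15 or BRM. A wild-type fly is therefore not among the groups, and the lines cannot be told apart within a library. A pool of larvae gives no spread between animals, and the 2 libraries of a group give only the spread between pools. In whole tissue, fewer cells of a type and less RNA per cell cannot be told apart.

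Total counts were 20687696 and 26530280 in brain, 47054569 and 65802288 in 4-HT fat body, and 25860088 and 50905534 in control fat body. The 7 fat body markers, larval serum protein genes among them, took 0.110% and 0.159% of all counts in brain, 51.4% and 48.6% in 4-HT fat body, and 51.2% and 53.5% in control fat body. Levels are therefore given as CPM, counts scaled to a common library size, after the library sizes were scaled by TMM, a method that sets the middle of the genes equal between libraries. With plain library sizes the median of all genes tested moved from 0.11 to 2.49 on the log2 scale of brain over control fat body, so directions are checked under both. Of the neuron markers, 6 of 7 had 0.107% to 1.01% of their brain level in control fat body, and Syt1 had 610% of it. The Hox genes that mark the ventral nerve cord summed to 0.873 and 0.483 CPM in brain. In fat body they summed to 239 and 208 CPM with 4-HT and to 147 and 237 CPM in control, so this list was far higher in fat body. The 10 salivary gland markers summed to 63.8 and 0.693 CPM in brain replicates 1 and 2, to 2.83 and 2.82 CPM in 4-HT fat body, and to 1817 and 2.12 CPM in control fat body replicates 1 and 2, so replicate 1 of brain and of control fat body stood apart in this list.

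Most neuropeptide and processing genes were far more abundant in brain. Of the 36 found, 33 passed the filter on low counts, and 28 of these were higher in brain than in control fat body, 4 were lower and 1, amn, was not called (edgeR's quasi-likelihood test, Benjamini-Hochberg adjusted p under 0.05 over 10029 genes). Over all genes tested, 35.5% were higher in brain and 34.5% were lower, and 70.0% were called either way. Their median log2 fold change was 5.70, or 5.23 with CCHa1, absent from the control counts, set at its lower bound, beside 0.11 for all genes tested. Of the 33, 24 had fewer than 10 counts in at least 1 library of each fat body group and passed the filter through their brain counts, so their share of calls is given as a description. The 4 lower members were CCHa2, svr, ETH and Nplp4. The same numbers, 28 above and 4 below of the 33, had brain levels that did not overlap those of control fat body, where 45.2% of all genes tested lay above and 41.4% below. With plain library sizes, 29 were higher and 3 lower against 75.5% and 11.8% of all genes: amn joined the higher ones and ETH left the lower ones. DESeq2 called the same 28 higher and the same 4 lower and added Nplp3 as lower, against 31.2% and 31.9% of all genes. By the authors' deposited table, 25 of 36 were higher and 4 lower, against 20.5% and 19.3% of all genes with an adjusted p. Without brain replicate 1, 25 of the 28 were called, and 7B2, Akh and Lk were lost. Without control fat body replicate 1, 27 of the 28 and the 4 lower members were called, and 7B2 was lost.

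**Figure D1:**
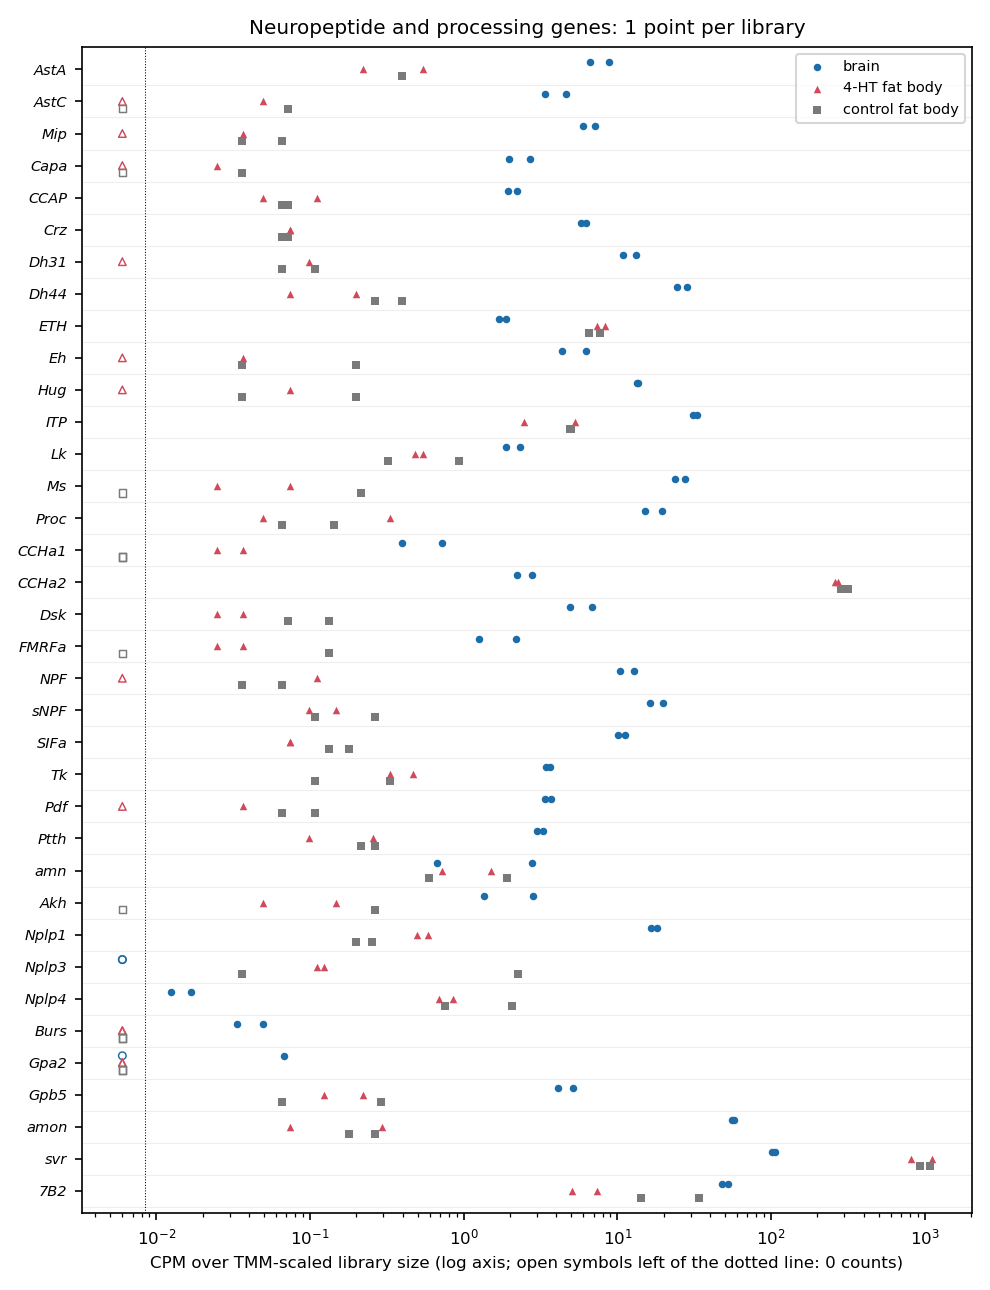
CPM over TMM-scaled library sizes on a log axis for each of the 36 genes, with 1 point per library: circles for brain, triangles for 4-HT fat body, squares for control fat body, and open symbols left of the dotted line for libraries with 0 counts. Brain points lie right of all fat body points for most genes, while CCHa2, svr, ETH, Nplp3 and Nplp4 lie the other way.

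The processing enzymes did not follow one pattern. The convertase gene amon had 56.9 and 55.6 CPM in brain, 0.294 and 0.0742 CPM in 4-HT fat body, and 0.264 and 0.179 CPM in control fat body. Both brain libraries were far above all fat body libraries, where amon had 3 to 8 counts. Its log2 fold change, brain over control fat body, was 8.04 ± 0.44 (SE), the highest of the members whose fold could be fitted on counts above 3 (edgeR adjusted p = 1.3e-05).

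The carboxypeptidase gene svr had 107 and 101 CPM in brain, 1106 and 813 CPM in 4-HT fat body, and 934 and 1088 CPM in control fat body. All fat body libraries were above both brain libraries, and the 4-HT and control libraries overlapped. The log2 fold change was -3.28 ± 0.24 (edgeR adjusted p = 4.48e-05), and with plain library sizes it was -0.89 and still called (edgeR adjusted p = 0.00499). The 2 antisense genes asRNA:CR44891 and asRNA:CR44892 overlap 7.5% and 2.0% of the svr exons, and the libraries do not mark strand. The svr enzyme is a carboxypeptidase D, a type that also trims proteins other than neuropeptides.

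The chaperone gene 7B2, whose product binds and matures amon, had 52.5 and 47.9 CPM in brain, 7.36 and 5.02 CPM in 4-HT fat body, and 14.2 and 33.8 CPM in control fat body. Brain was above every fat body library, and the control libraries differed from each other by more than the 4-HT libraries did. The fold over control fat body was just inside the threshold, at a log2 value of 1.06 ± 0.40 (edgeR adjusted p = 0.0499). The call was lost in 9 of 14 alternatives, with edgeR adjusted p from 0.0632 to 0.15, among them the fit without control fat body replicate 1 (log2 fold change 0.60, edgeR adjusted p = 0.0897). In the authors' deposited table its adjusted p was 0.17. The fit without control fat body replicate 2 gave 1.84.

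The most abundant precursors in brain by CPM were ITP, Dh44, Ms, sNPF, Nplp1 and Proc. ITP stood apart, Dh44 and Ms overlapped each other, and so did sNPF, Nplp1 and Proc. All precursors and subunits together summed to 270 and 233 CPM in brain, 291 and 274 CPM in 4-HT fat body, and 338 and 304 CPM in control fat body, so the sums were close on this scale. With plain library sizes they were 778 and 710 CPM in brain, 168 and 168 CPM in 4-HT fat body, and 198 and 166 CPM in control fat body. A single gene, CCHa2, made up most of the fat body sum: it took 1.03% and 0.9499% of precursor counts in brain, 93.3% and 94.7% in 4-HT fat body, and 93.9% and 93.9% in control fat body. Without CCHa2 the sums were 267 and 231 CPM in brain, 19.5 and 14.4 CPM in 4-HT fat body, and 20.6 and 18.6 CPM in control fat body.

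The ITP gene encodes the ion transport peptide, a hormone of water and salt balance. Its level was 33.1 and 31.0 CPM in brain, 5.30 and 2.45 CPM in 4-HT fat body, and 4.95 and 4.92 CPM in control fat body. Brain stood above fat body, yet ITP kept 99 to 144 counts in the 4-HT libraries and 75 and 137 in the control libraries. Its log2 fold change in brain was 2.70 ± 0.35 (edgeR adjusted p = 0.000549). The neighbour CG4622 on the opposite strand overlaps 6.3% of its exons and had 14.2 and 13.4 CPM in brain, 9.42 and 9.40 CPM in 4-HT fat body, and 7.39 and 8.29 CPM in control fat body, and without strand the reads of the overlap cannot be told apart. Their part in the result was not tested.

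Both diuretic hormone precursors were brain genes. Dh44, whose peptide resembles the corticotropin releasing factor of mammals, had 28.5 and 24.3 CPM in brain, 0.0736 and 0.198 CPM in 4-HT fat body, and 0.264 and 0.395 CPM in control fat body. Dh31, whose peptide resembles calcitonin, had 13.3 and 10.9 CPM in brain, 0 and 0.0989 CPM in 4-HT fat body, and 0.0660 and 0.108 CPM in control fat body. Neither gene overlapped between brain and fat body, with log2 fold changes over control fat body of 6.25 ± 0.35 (edgeR adjusted p = 1.38e-05) for Dh44 and 6.99 ± 0.62 (edgeR adjusted p = 9.25e-05) for Dh31.

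Among the myotropic precursors, Ms (myosuppressin, which slows visceral muscle) had 27.4 and 23.8 CPM in brain, 0.0736 and 0.0247 CPM in 4-HT fat body, and 0 and 0.215 CPM in control fat body. Proc (proctolin, which stimulates muscle) had 19.4 and 15.2 CPM in brain, 0.331 and 0.0495 CPM in 4-HT fat body, and 0.0660 and 0.144 CPM in control fat body. Hug (hugin, a pyrokinin precursor tied to feeding) had 13.3 and 13.6 CPM in brain, 0.0736 and 0 CPM in 4-HT fat body, and 0.198 and 0.0359 CPM in control fat body. All 3 had fat body levels resting on 0 to 9 counts a library and brain levels on 794 to 1927. Their log2 fold changes over control fat body were 7.53 ± 0.56 for Ms, 7.20 ± 0.67 for Proc and 7.09 ± 0.67 for Hug, with edgeR adjusted p of 4.3e-05, 0.000115 and 0.000131. These folds rest on a few control counts: without control fat body replicate 2 they were 7.99 for Proc and 6.08 for Hug, and Ms then had no control count at all. Without control fat body replicate 1 Hug was at 8.47.

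The remaining precursors of diuresis, ecdysis and myotropic action were CCAP, Crz, Capa and Eh, the last encoding eclosion hormone, which acts in the ecdysis sequence. In brain they ranged from 1.95 CPM (CCAP in replicate 1) to 6.28 CPM (Crz in replicate 1), and no fat body library had more than 3 counts of any of them. All 4 were called higher. The count ratios over control fat body, which had 3 or fewer counts in each of the next 3 genes, were 30.2 for CCAP (95% exact counting interval 10.2 to 147), 86.2 for Crz (29.4 to 419) and 97.7 for Capa (17.4 to 3872). Within the 12 genes of this role, 11 were higher in brain and 1, ETH, was lower.

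The allatostatin and myoinhibitory precursors AstA, AstC and Mip, whose peptides inhibit muscle or hormone release, were all called higher in brain. AstA had 8.78 and 6.62 CPM in brain, 0.221 and 0.544 CPM in 4-HT fat body, and 0.396 and 0.395 CPM in control fat body, a log2 fold change over control of 4.27 ± 0.47 (edgeR adjusted p = 0.000266). AstC and Mip had 3.35 to 7.15 CPM in brain and 0 to 2 counts in every fat body library.

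Among precursors of feeding, growth and behaviour, sNPF (short neuropeptide F, which promotes feeding) had 19.9 and 16.4 CPM in brain, 0.147 and 0.0989 CPM in 4-HT fat body, and 0.264 and 0.108 CPM in control fat body. NPF, the insect counterpart of neuropeptide Y, had 12.7 and 10.3 CPM in brain, 0.110 and 0 CPM in 4-HT fat body, and 0.0660 and 0.0359 CPM in control fat body. Brain and fat body did not overlap for either gene. The log2 fold change of sNPF over control fat body was 6.74 ± 0.39 (edgeR adjusted p = 1.54e-05), and 7.39 and 6.10 without control fat body replicates 1 and 2. NPF had 2 counts in control fat body, which gives a count ratio of 244 with an exact counting interval of 67.4 to 2016.

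Of the other genes of this role, SIFa, Dsk, Tk, Pdf, Ptth, FMRFa, CCHa1 and Akh were also called higher, which makes 10 higher, 1 lower (CCHa2) and 1 not called (amn) of 12. SIFa, the most abundant of them, had 11.1 and 10.1 CPM in brain and 0.132 and 0.179 in control fat body. Start1 on the opposite strand overlaps 21.1% of the SIFa exons and had 25.7 and 28.4 CPM in control fat body. Pdf, the circadian transmitter, and Ptth, the hormone that drives ecdysone synthesis in the prothoracic gland, had 2.98 to 3.71 CPM in brain and at most 0.264 CPM in any fat body library. CCHa1, known from neurons and gut endocrine cells, had 43 and 32 counts in brain and none in control fat body, and its level in brain was at least 7.66-fold higher over a floor of 3 counts for the control group.

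Akh encodes adipokinetic hormone, which the corpora cardiaca of the ring gland release and which mobilises fat body stores. It had 2.80 and 1.35 CPM in brain, 0.147 and 0.0495 CPM in 4-HT fat body, and 0.264 and 0 CPM in control fat body. Brain replicate 1 had 2.08 times the level of brain replicate 2. The 5 ring gland markers found of 6 listed, phtm, spok and sad foremost, summed to 14.3 and 4.80 CPM in the same brain replicates, to 0.110 and 0.0495 CPM in 4-HT fat body, and to 0.330 and 0.179 CPM in control fat body. Their part in the Akh level was not tested. Akh was called higher in brain, with a log2 fold change of 4.26 ± 1.20 (edgeR adjusted p = 0.0173), and the call was lost without brain replicate 1 (edgeR adjusted p = 0.101).

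Nplp1, a precursor of neuropeptide-like peptides, had 18.1 and 16.5 CPM in brain, 0.589 and 0.495 CPM in 4-HT fat body, and 0.198 and 0.251 CPM in control fat body. The 3 groups did not overlap, and brain was far above the others (log2 fold change over control 6.21 ± 0.27, edgeR adjusted p = 6.48e-06). Gpb5, a cystine knot hormone subunit, had 5.10 and 4.10 CPM in brain and 0.0660 and 0.287 in control fat body, and was called higher (log2 fold change 4.53 ± 0.62, edgeR adjusted p = 0.000701). Burs, a subunit of the tanning hormone bursicon, and Gpa2, the partner of Gpb5, had 2 and 4, and 4 and 0, counts in the 2 brain libraries and no count in any fat body library, and neither was tested. Bursicon is known mostly from neurons of the ventral nerve cord, and the brains were dissected without it. The part of the dissection in the low Burs counts was not tested.

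Among the 36 genes, levels in brain per kilobase of exon gave another order than CPM. 7B2 led with 45.7 and 41.8 CPM per kb, well apart from Ms at 23.3 and 20.2 CPM per kb. Ms, SIFa and NPF overlapped one another and were followed by amon at 14.3 and 13.9, Hug at 12.9 and 13.1, and svr at 12.4 and 11.8 CPM per kb. From svr down to Ptth, at 2.89 and 2.64 CPM per kb, every gene overlapped its neighbour in the order, so single ranks there are not resolved. Replicates in brain were close for most genes: of 31 members with at least 100 brain counts, 28 differed by less than 1.5 times, with a median of 1.21 and a highest ratio of 4.15 for amn.

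**Figure D2:**
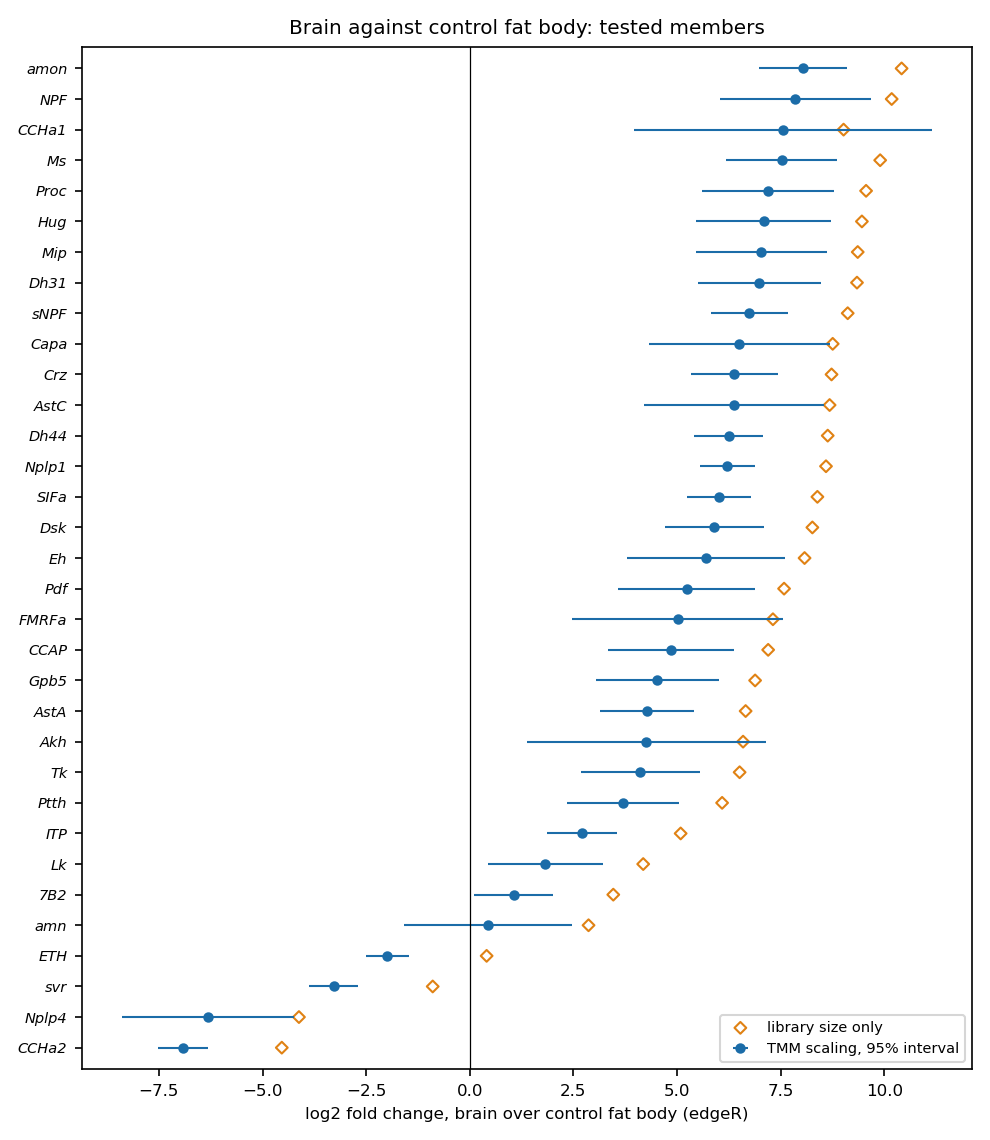
Log2 fold change of brain over control fat body for the 33 tested genes, with circles and 95% intervals from the edgeR fit on TMM-scaled counts and diamonds for the same fit with library size only. The genes lie mostly right of 0 under both scalings, ETH changes side between them, and the CCHa1 point is a fitted value against a control group with no counts and no bound on the true fold.

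In fat body 9 members were detected, meaning at least 10 counts in both libraries of the 4-HT or the control group. These were CCHa2, svr, ETH, ITP, 7B2, Lk, amn, Nplp1 and Nplp4. All 9 met this in the 4-HT libraries and 6 in the control libraries, whereas 32 met it in brain. The rule uses raw counts and the libraries differ in depth, so these numbers depend on depth as well as level. The other 27 stayed below. For 26 of them, those with brain counts, control fat body had 0% to 7.68% of the brain level with a median of 1.08%, or 0% to 1.48% with a median of 0.209% with plain library sizes. The 6 neuron markers named above other than Syt1 had 0.107% to 1.01% in the same libraries on the TMM scale, and 0.0204% to 0.192% with plain library sizes. On the TMM scale Nplp1, which passed the rule, had 1.30% of its brain level in control fat body. AstA and Tk, which did not pass, had 5.14% and 6.22%, so the rule does not order genes by this share.

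**Figure D3:**
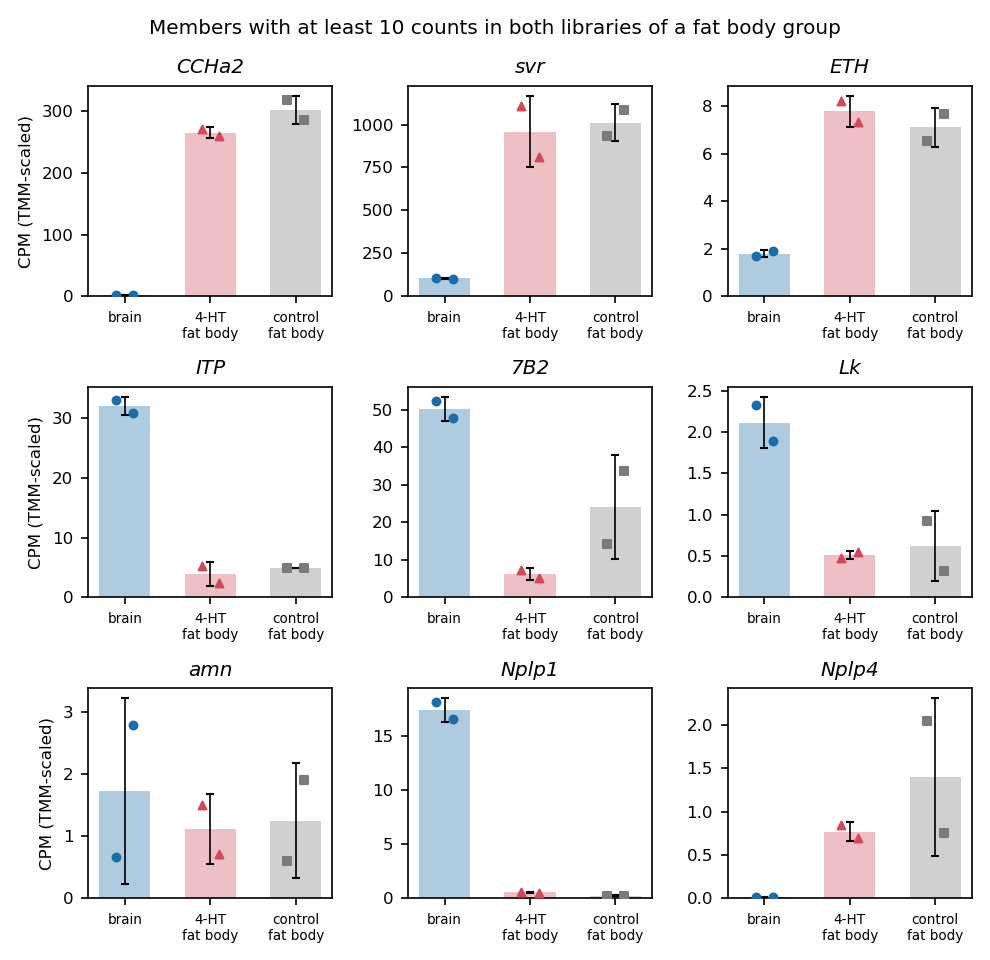
CPM over TMM-scaled library sizes of the 9 genes detected in fat body, with bars for the group mean, whiskers for the SD of 2 libraries and a point per library, for brain, 4-HT fat body and control fat body from left to right. CCHa2, svr, ETH and Nplp4 are lowest in brain, the brain bar is the highest for ITP, 7B2, Lk and Nplp1, and the groups overlap for amn.

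CCHa2 had the highest fat body level of the precursor genes in the set. It encodes a hormone that the larval fat body is known to release with nutrition and that acts through its receptor in the brain on insulin-producing cells. Its level was 2.79 and 2.21 CPM in brain, 271 and 259 CPM in 4-HT fat body, and 318 and 285 CPM in control fat body. Every fat body library was above both brain libraries, and the highest was 1.22 times the lowest of the 4. Brain was 121-fold lower than control fat body, a log2 fold change of -6.91 ± 0.25 (edgeR adjusted p = 4.2e-06), and -4.54 with plain library sizes. Its count of 166 and 179 in brain libraries lies within tissue that had 0.110% and 0.159% of its counts in fat body markers. The part of any fat body remnant in this brain level was not tested.

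Per kilobase of exon, CCHa2 reached a mean of 182 CPM per kb in 4-HT fat body and 207 CPM per kb in control fat body, above svr at 112 and 118. The other 7 detected genes had 0.0832 to 20.9 CPM per kb in these groups, with 7B2 in control fat body at the top.

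ETH encodes ecdysis triggering hormone, which Inka cells on the trachea release before a molt. It had 1.70 and 1.89 CPM in brain, 8.24 and 7.32 CPM in 4-HT fat body, and 6.53 and 7.68 CPM in control fat body. Brain was lower on this scale (log2 fold change -1.99 ± 0.21, edgeR adjusted p = 0.000228). With plain library sizes the values were 4.88 and 5.77 CPM in brain, 4.76 and 4.50 CPM in 4-HT fat body, and 3.83 and 4.20 CPM in control fat body, and the log2 fold change was 0.41 without a call (edgeR adjusted p = 0.166). Relative to the median of all genes it was -2.09 with TMM scaling and -2.08 with library sizes. The scaling moves all genes by nearly the same amount, so this match was fixed in advance and does not settle the direction. Of the ETH exons, 90.5% lie opposite the antisense gene asRNA:CR43257, whose reads cannot be told apart from those of ETH in libraries without strand. The 4 trachea and epidermis markers found of 6 listed summed to 11.3 and 8.90 CPM in brain, 4.08 and 4.72 CPM in 4-HT fat body, and 9.77 and 4.67 CPM in control fat body, with none of them at 0, and their part in the ETH level was not tested.

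Lk, the leucokinin precursor that acts on the Malpighian tubules, had 2.33 and 1.89 CPM in brain, 0.478 and 0.544 CPM in 4-HT fat body, and 0.924 and 0.323 CPM in control fat body. Brain was above all fat body libraries, and the log2 fold change over control was 1.82 ± 0.58 (edgeR adjusted p = 0.0274). The call was lost without brain replicate 1, without brain replicate 2 and without control fat body replicate 2 (edgeR adjusted p = 0.121, 0.0738 and 0.0905), and the log2 fold change was 2.73 without control fat body replicate 1. In the authors' deposited table the adjusted p was 0.0693. Lk lies inside CG34039 on the other strand, whose exons do not overlap those of Lk. The antisense gene asRNA:CR44843 covers 93.0% of the Lk exons, so these reads are uncertain.

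The memory gene amn (amnesiac) had 0.672 and 2.78 CPM in brain, 1.51 and 0.717 CPM in 4-HT fat body, and 0.594 and 1.90 CPM in control fat body. The groups overlapped, and the log2 fold change of brain over control was 0.44 ± 0.84, with a 95% interval from -1.59 to 2.46 (edgeR adjusted p = 0.661). It was negative without brain replicate 2 (-0.86) and without control fat body replicate 1 (-0.12). The gene lies inside Hers on the opposite strand, whose exons overlap 3.5% of the amn exons. Hers had 137 and 146 CPM in brain, 60.6 and 46.0 CPM in 4-HT fat body, and 42.2 and 57.8 CPM in control fat body.

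Nplp4, a neuropeptide-like precursor, had 1 count in each brain library, 0.846 and 0.693 CPM in 4-HT fat body, and 2.05 and 0.754 CPM in control fat body. Fat body was higher in every library, and the level in control fat body was 84.9 times that in brain, with an exact counting interval of 22.3 to 719. Nplp3, a gene of the same kind, had no count in brain, 3 and 5 counts in 4-HT fat body, and 34 and 1 counts in control fat body, and was too low for the edgeR filter. Control fat body replicate 1 was the highest library for both genes. That library also led in salivary gland markers, given above, and in the hemocyte markers Hml, at 48.6 CPM against 16.2 CPM in control replicate 2, and eater, at 11.0 against 2.44 CPM. The 6 hemocyte markers together summed to 33.0 and 30.4 CPM in brain, 528 and 443 CPM in 4-HT fat body, and 513 and 586 CPM in control fat body. Most of each fat body sum was srp, so the sum hides the order of the rest. Between the control replicates, srp alone was lower in replicate 1 (375 CPM) than in replicate 2 (549 CPM). NimC1 (5.48 and 1.22 CPM), Pxn (55.9 and 10.0 CPM) and He (16.2 and 6.68 CPM) were higher in replicate 1, as were Hml and eater. The part of these markers in the Nplp3 and Nplp4 levels was not tested. Without that library Nplp4 was still lower in brain, with a fitted log2 fold change of -5.45 (edgeR adjusted p = 0.00119).

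Receptor genes of these peptides were also described. Of 40 listed receptor genes, 37 were found and tested, with AstA-R1, MsR2 and Gyc76C not analysed here. In brain 28 were higher than in control fat body, 5 were lower and 4 (CapaR, ETHR, tor and Lgr1) were not called, against the 35.5% and 34.5% of all genes given above. Of the 37, 27 were below the detection rule in fat body and passed the filter through their brain counts, and 24 of the 28 higher calls are among these, so the count is a description. Their median log2 fold change was 3.80, or 3.602 with PK1-R and RYa-R, both without a control count, at their bounds. With plain library sizes, 33 were higher and 2 lower, against 75.5% and 11.8% of all genes. The authors' deposited table had 23 higher and 5 lower, against 20.5% and 19.3% of all genes with an adjusted p. Without brain replicate 1, 21 of the 28 were called, and without brain replicate 2, 22.

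**Figure D4:**
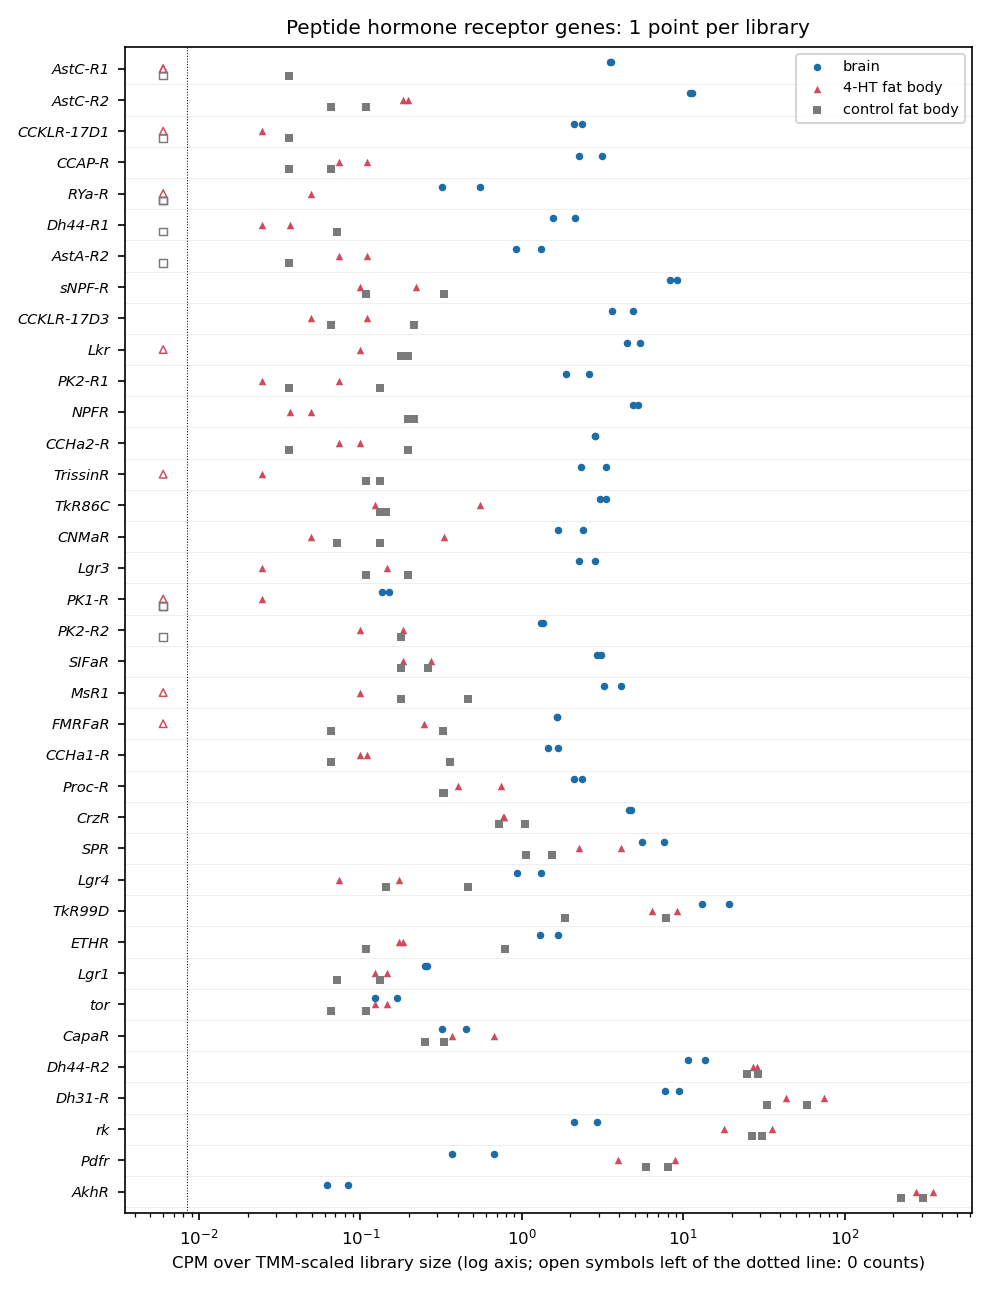
CPM over TMM-scaled library sizes on a log axis for the 37 receptor genes, ordered from high to low ratio of brain over control fat body, with 1 point per library and open symbols for libraries with 0 counts. Brain points lie to the right for the upper rows, and the fat body points lie to the right for Dh44-R2, Dh31-R, rk, Pdfr and AkhR at the bottom.

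Among called receptors with a mean of at least 5 CPM in brain, the differences were largest for AstC-R2, sNPF-R and NPFR, receptors of allatostatin C, sNPF and NPF. AstC-R2 had 11.0 and 11.3 CPM in brain, 0.184 and 0.198 CPM in 4-HT fat body, and 0.0660 and 0.108 CPM in control fat body, a log2 fold change of 6.87 ± 0.34 (edgeR adjusted p = 9.7e-06). The brain levels of sNPF-R were 8.24 and 9.18 CPM, and its control fat body levels 0.330 and 0.108 CPM, and NPFR had 4.87 and 5.25 CPM in brain and 0.198 and 0.215 in control fat body. All 3 had brain and fat body levels that did not overlap.

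Fat body receptors were led by AkhR, through which adipokinetic hormone acts on fat body. AkhR had 0.0839 and 0.0619 CPM in brain, 276 and 355 CPM in 4-HT fat body, and 223 and 304 CPM in control fat body, a log2 fold change of -11.79 ± 0.40 in brain (edgeR adjusted p = 4.08e-06). Pdfr (the receptor of the Pdf peptide) and rk (rickets, the bursicon receptor) were also lower in brain, at -3.73 ± 0.51 and -3.51 ± 0.37 on the log2 scale (edgeR adjusted p = 0.000731 and 0.000217). The ligand genes Akh, Pdf and Burs were below the detection rule in fat body. Dh31-R and Dh44-R2, receptors of the diuretic hormones, had 7.69 and 9.38, and 10.7 and 13.7, CPM in brain and 32.9 and 58.7, and 24.9 and 29.2, in control fat body. The direction of Dh44-R2 depended on the scale: with plain library sizes it was higher in brain at 1.25 on the log2 scale. Dh31-R was then at -0.02 without a call, and Pdfr stayed lower at -1.33 without a call (edgeR adjusted p = 0.0542). Relative to the median of all genes, Dh44-R2 was at -1.26 with TMM scaling and -1.24 with library sizes. This match too follows from the scaling and does not settle the direction.

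For 3 of the peptides detected in fat body, CCHa2, ETH and Lk, the receptor genes are given here. CCHa2-R had 2.84 and 2.82 CPM in brain, 0.0736 and 0.0989 CPM in 4-HT fat body, and 0.198 and 0.0359 CPM in control fat body, and its log2 fold change was 4.78 ± 0.71 (edgeR adjusted p = 0.00106). The CCHa2 ligand and its receptor thus had their higher levels in different tissues. ETHR, the receptor of ETH, had 1.29 and 1.68 CPM in brain and 0.792 and 0.108 in control fat body and was not called (edgeR adjusted p = 0.0905), while Lkr, the receptor of Lk, had 4.50 and 5.42 CPM in brain and 0.198 and 0.179 in control fat body and was higher (log2 fold change 4.71 ± 0.70, edgeR adjusted p = 0.00101).

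Feeding 4-HT was compared in fat body, since the lines respond to the drug by an intein in the Dam protein. No member was called by edgeR, 0 of 33 tested, and none of the 37 receptors, against 0.0% of all genes. At an unadjusted p under 0.05 edgeR had 3 members, Dh44, Nplp1 and 7B2, and 596 of all genes, 5.94%. DESeq2 called 1 member, 7B2, lower with 4-HT, against 0.197% of all genes lower and 0.423% called either way, and in the authors' deposited table no member was called, against 0.0229%. Groups did not overlap for 4 tested members above and 6 below, where 15.5% and 14.6% of all genes tested were above and below. Several of these separations, in both directions, rest on very few counts. Crz had 2 and 3 counts with 4-HT against 1 and 2 in control, and Dsk had 1 and 1 against 2 and 2. The median log2 fold change of the 33 was -0.36, beside 0.01 for all genes tested. Of the 33, 24 were below 10 counts in at least 1 library of each fat body group, so this median rests mostly on low counts.

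The 7B2 level, given above, was lower in both 4-HT libraries than in both control libraries. Its log2 fold change, 4-HT over control, was -1.97 ± 0.42 (edgeR adjusted p = 0.699), with a 95% interval from -2.97 to -0.97. DESeq2 gave an adjusted p of 0.0109. Without control fat body replicate 1 edgeR gave -2.46 with an adjusted p of 0.0457, and without control replicate 2, the library with 33.8 CPM, it gave -1.19 with an adjusted p of 0.227. In the authors' deposited table the log2 fold change was -1.96 with an adjusted p of 1. The difference therefore passed in 2 of 13 alternatives.

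Nplp1 was above control in both 4-HT libraries, on 16 and 20 counts against 3 and 7, with a log2 fold change of 1.21 ± 0.32 (edgeR adjusted p = 0.835). Dh44 was below control in both, on 2 and 8 counts against 4 and 11, with a log2 fold change of -1.22 ± 0.49 (edgeR adjusted p = 0.835). Of the better measured fat body genes, CCHa2, svr and ETH were close between the groups, while 7B2 differed as given above. ITP had a log2 fold change of -0.36 with a 95% interval from -1.20 to 0.47. CCHa2 had a log2 fold change of -0.18 with a 95% interval from -0.65 to 0.28, svr one of -0.08 from -0.62 to 0.46, and ETH one of 0.13 from -0.37 to 0.62. For the low genes amn, Lk and Nplp4 the intervals were wide, as from -2.29 to 1.86 for amn.

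**Figure D5:**
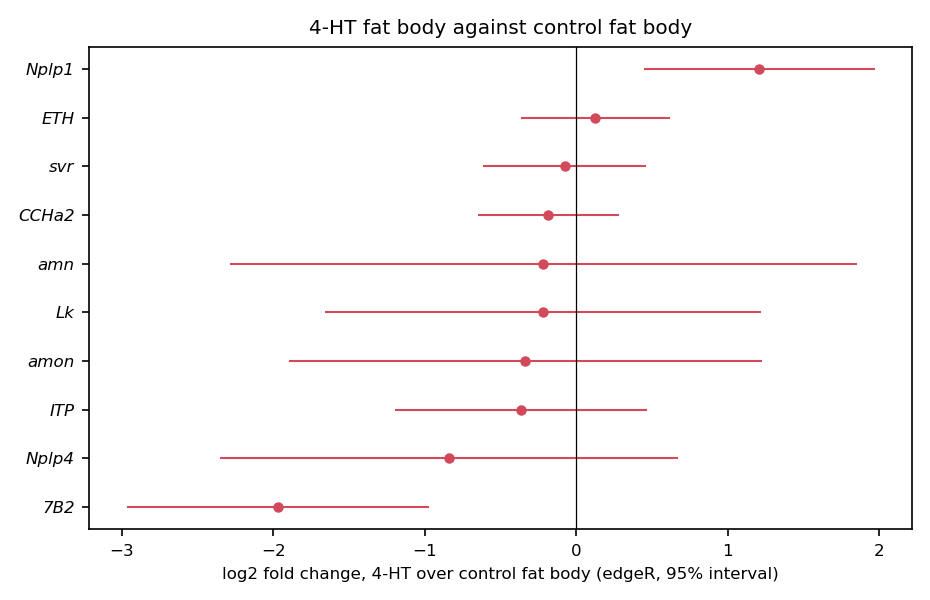
Log2 fold change of 4-HT over control fat body with 95% intervals from the edgeR fit for the 9 genes detected in fat body and amon. The intervals of CCHa2, svr and ETH are narrow around 0, those of Nplp1 and 7B2 lie to either side of 0 before adjustment, and neither passed the adjusted threshold.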

How the data were processed

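The counts per gene are whole numbers deposited by the authors, without scaling. The submitters' processing notes name TopHat, HTSeq, DESeq and dm3, with no version or role. The annotation, counting mode and strand setting were not given in the sources used here, and the kit that the labels name does not mark strand. The deposited comparison files hold, per the file headers, a signal per group (mean scaled count), a ratio of group means, its log2 value and p-values, used here only where the authors' deposited table is named.

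Symbols, exon lengths and overlaps came from release 6 annotation, and 13523 of 14869 identifiers had a symbol. Genes passing filterByExpr (10029) were fitted with edgeR 4.0.16 (TMM, robust glmQLFit, glmQLFTest, group as the only term, all 6 libraries, 3 residual degrees of freedom) in R 4.3.3, with Benjamini-Hochberg adjustment and a threshold of 0.05. SE is the log2 fold change over the root of F. SD is between 2 libraries. DESeq2 1.42.0 was an alternative, with others for scaling, filter, groups, a replicate block and single libraries. Floors of 3 counts per group and 95% exact intervals cover counting error only. The fitting was tested on simulated data. Members detected in fat body, enzymes, the 12 genes most abundant in brain and, of other lists, up to 3 called genes a direction with at least 5 CPM got full values. The rest are given by range. Akh, AstA, Gpb5, SIFa and further single genes outside it were chosen with their values in view. The members and lists were chosen with earlier results of these data known. No sequences are shown.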

Additional observations from a re-analysis of the deposited data

How the results depend on the processing

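Depth and the 2 libraries of a group limit all results: members with few fat body counts have folds that rest on single libraries, and a fit without 1 library assumes that the lone sample varies like the other groups. Across 14 alternatives, 25 to 29 members were higher in brain and 3 to 5 lower, and 21 to 33 receptors higher and 2 to 5 lower. Of 462 values of single members between tissues, 445 kept their direction and side of the threshold. With library size only, 7574 of all genes were higher and 1183 lower in brain, 2 receptors were lower, and ETH had a log2 fold change of 0.41. In the 4-HT comparison DESeq2 called 23 of all genes higher and 20 lower, among them 1 member (lower), and no filter on low counts gave 2 lower. Without single libraries, all genes higher with 4-HT numbered 0 to 30, all genes lower 0 to 8, and members lower 0 to 1. The log2 fold change of 4-HT over control then ranged from -1.004 to 0.11 for ITP, -0.84 to 0.66 for Lk, -1.40 to 0.026 for Nplp4, -0.83 to 0.90 for amn, -1.47 to 0.47 for amon and -0.31 to 0.13 for svr, and that of amn between tissues from -0.86 to 1.55. The cause was not tested.

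Replicate numbers were not treated as pairs in the main fit. Deviations of same-numbered libraries correlated at 0.19 between brain and control fat body. The values were -0.09 between brain and 4-HT fat body and -0.14 between 4-HT and control fat body. With 2 libraries a group these values cannot tell whether same-numbered libraries share a batch. With a replicate block, 27 members were higher and 4 lower in brain (7B2 was lost, edgeR adjusted p = 0.0692), 26 receptors were higher and 5 lower, no member was called with 4-HT, and the log2 fold change of amn with 4-HT was 0.14.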

Other observations

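Other secreted peptide genes lay outside the set. Of 13 found, 10 were tested, and 7 were higher in brain than in control fat body and 2 were lower (edgeR adjusted p under 0.05), where 35.5% and 34.5% of all genes were. With plain library sizes 8 were higher and 1 lower, against 75.5% and 11.8% of all genes. The 7 higher genes were all under 10 counts in at least 1 library of each fat body group and passed the filter through brain. The insulin-like peptide gene Ilp3 had 11.3 and 11.95 CPM in brain and 0 and 0.0359 in control fat body, and Ilp2, which the insulin-producing cells of the brain express, had 24.6 and 20.7 CPM in brain and 0.132 and 0.0718 in control fat body (log2 fold change 7.87 ± 0.35, edgeR adjusted p = 1.69e-05). The fat body insulin-like peptide gene Ilp6 had 2.94 and 2.56 CPM in brain, 315 and 241 CPM in 4-HT fat body, and 165 and 279 CPM in control fat body (log2 fold change of brain over control -6.34 ± 0.37, edgeR adjusted p = 1.7e-05). CNMa, a precursor gene, had 0.336 and 0.285 CPM in brain and 1.98 and 6.64 in control fat body and was lower in brain (edgeR adjusted p = 0.00347), a call that plain library sizes did not give (edgeR adjusted p = 0.105).

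Of 10 genes of dense core vesicles and their release, 8 were higher in brain and 0 lower by edgeR, against 35.5% and 34.5% of all genes. Rab2 and Rbcn-3A were not called. DESeq2 gave the same counts, against 31.2% and 31.9% of all genes, and so did edgeR at an unadjusted p under 0.05. All 10 were called higher with plain library sizes, as were 75.5% of all genes. IA-2, a membrane protein of dense core vesicles, had 427 and 475 CPM in brain and 1.58 and 2.01 in control fat body, and Rab3 had 94.0 and 89.2 CPM in brain and 0.660 and 1.11 in control fat body. Of 12 tested convertase and peptidase genes that are not members, 3 were higher in brain, the neprilysin genes Nep1, Nep3 and Nep4, and 8 were lower, against 35.5% and 34.5% of all genes. This split depended on the scale, with 5 higher and 5 lower with plain library sizes, against 75.5% and 11.8% of all genes. Nep6 had 0.0504 and 0.371 CPM in brain and 124 and 164 in control fat body (log2 fold change -9.31 ± 0.74, edgeR adjusted p = 6.06e-05). Nep3 had 55.3 and 51.3 CPM in brain and 1.12 and 0.467 in control fat body (log2 fold change 6.18 ± 0.55, edgeR adjusted p = 9.85e-05). The furin gene Fur1 and the glutaminyl cyclase genes QC and isoQC, whose enzymes cut precursors or form pyroglutamate, were lower in brain on the TMM scale, with log2 fold changes of -2.51, -2.02 and -3.07, and at -0.11, 0.37 and -0.69 with plain library sizes.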
